A study of Mus musculus with 168 samples.

Results

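The genes described here carry out glucose uptake, glycolysis, lactate and pyruvate handling, glycogen turnover and glucose 6-phosphate transport. They are a list of 33 symbols grouped by function, which was chosen with earlier results of these data known. All 33 are among the 42405 gene symbols of the tables. RNA of single cells from brains of male C57BL/6 mice was read by Smart-seq2, a method that amplifies whole polyadenylated transcripts from individual cells. Cells labelled old NSC came from the subventricular zone (SVZ), the niche along the lateral ventricle where neural stem cells persist, and were sorted as GLAST+ CD133+ CD45- O4-. Their age label is 23 months, while the protocol text names 22 months and 4 mice to a pool. Cells labelled old astrocyte, 25 months, were GLAST+ CD45- O4-, and 13 came from striatum dissected without the SVZ and 4 from somatosensory cortex, with 3 or 4 mice to a pool. All cells were picked by hand and no genetic change or treatment is given. The column names divide the SVZ cells into 68 called ogp and 65 called ogp2, all of which are used here, and the striatal cells into 11 called OGStr and 2 called OStr.

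No animal is named for any cell, so each region counts as 1 sample. Nothing was tested, every SD is the spread between cells, and a difference is given by its size and by whether the cells of the groups overlap. Between SVZ cells and astrocytes the sort, the age label and the deposited table change together with the region, so that these cannot be told apart. Values are TPM, which corrects for transcript length and makes each cell sum to 1000000, so that a value is a share of a cell's transcripts and depth is unknown. Medians of 3636 genes in striatum, 3387.5 in cortex and 3479 in the SVZ reached 1 TPM. The 8 astrocyte markers summed to a median of 9507 TPM in striatum, 11589.8 in cortex and 10184 in the SVZ, although Aldh1a1 was at 0 in cortex. Ptprc, Cldn5, Rgs5 and Mog, defining genes of immune, endothelial, mural and oligodendrocyte cells, were at 0 in every astrocyte, and Rbfox3 of neurons was too. Other markers on the same lists were read. Of the 6 neuron markers, 1 was seen in striatum (highest cell sum of the list 102.3 TPM) and 1 in cortex (7.97 TPM). Of the 5 neuroblast markers, 3 were seen in striatum, with a highest cell sum of 290.6 TPM. The oligodendrocyte marker Cnp had means of 171, 138 and 177 TPM in striatum, cortex and SVZ. In striatum the mural marker Pdgfrb was seen in 11 of 13 cells (mean 58.4 TPM), the ependymal list's Rarres2 in 8 (184 TPM) and the microglial P2ry12 in 3 (32.2 TPM). In cortex P2ry12, Rarres2 and the neuroblast markers Tubb3 and Sox11 were each seen in 1 of 4 cells. The part of such cells or RNA in the results was not tested.

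Glycolysis splits 1 glucose into pyruvate in the cytosol. Pyruvate is then either reduced to lactate, which leaves the cell through monocarboxylate transporters, or burned in mitochondria after the pyruvate dehydrogenase complex has turned it into acetyl-CoA. Several steps can be run by more than 1 enzyme, and brain cell types choose among these paralogues: aldolase C and glycogen breakdown are classical features of astrocytes, which are known for passing lactate to neurons. Neural stem cells of the SVZ share many astrocyte genes and are thought to rely on glycolysis while they rest.

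Most members' promoters share short letters, which are shown before the levels. ACGTG is a form of the core of sites read by hypoxia-inducible factors and by some basic helix-loop-helix factors. Other forms, such as GCGTG, were not searched. ACGTG was searched on both strands in the 250 bases before each RefSeq gene start of GRCm38.p6, for which 32 of the 33 members had a window. It was found for 19 of the 32 members (59.4%), against 18.5% of all 27025 genes with a window and 20.0% of the 17492 protein-coding ones. CACGTG, which contains ACGTG on both strands, was found for 7 of the 32 (21.9%) against 6.86% of all genes, and TATAAA for 3 of the 32 (9.38%) against 14.3%. Members' windows were also richer in G and C, with a median of 60% against 52.4%. Printed are 3 windows with the letters and 2 without, each the most upstream window of its gene that overlaps no annotated exon. Capitals mark ACGTG or its reverse complement CACGT. The sequences run 5′ to 3′ on the gene's strand, and these genes were chosen after their values were seen.
Pgk1: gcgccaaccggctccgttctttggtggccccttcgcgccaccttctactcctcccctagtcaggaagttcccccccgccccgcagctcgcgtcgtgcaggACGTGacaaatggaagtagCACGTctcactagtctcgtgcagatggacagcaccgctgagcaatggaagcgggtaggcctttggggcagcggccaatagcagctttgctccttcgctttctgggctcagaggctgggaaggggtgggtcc
Ldha: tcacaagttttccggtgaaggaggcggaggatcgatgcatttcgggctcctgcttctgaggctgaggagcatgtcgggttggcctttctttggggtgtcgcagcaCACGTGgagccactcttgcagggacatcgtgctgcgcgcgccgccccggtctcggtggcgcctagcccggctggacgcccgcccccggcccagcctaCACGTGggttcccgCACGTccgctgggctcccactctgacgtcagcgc
Slc16a1: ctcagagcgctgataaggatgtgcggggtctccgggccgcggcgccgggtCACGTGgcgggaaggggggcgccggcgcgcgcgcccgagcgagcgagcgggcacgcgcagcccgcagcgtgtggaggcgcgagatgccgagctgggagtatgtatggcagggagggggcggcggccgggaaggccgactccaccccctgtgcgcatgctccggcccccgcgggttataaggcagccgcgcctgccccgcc
Ldhb: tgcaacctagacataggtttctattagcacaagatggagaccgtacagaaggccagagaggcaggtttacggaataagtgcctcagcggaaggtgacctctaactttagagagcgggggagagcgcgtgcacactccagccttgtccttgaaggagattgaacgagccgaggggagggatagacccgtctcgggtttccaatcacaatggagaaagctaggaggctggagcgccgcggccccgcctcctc
Eno1: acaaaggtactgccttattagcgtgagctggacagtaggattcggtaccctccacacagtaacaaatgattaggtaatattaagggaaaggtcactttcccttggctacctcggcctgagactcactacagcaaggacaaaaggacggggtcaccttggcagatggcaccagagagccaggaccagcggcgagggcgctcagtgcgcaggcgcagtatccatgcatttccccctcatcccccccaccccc
The Pgk1 window (chrX:106186850-106187099, plus strand) holds the letters at 2 places. The Ldha window (chr7:46845554-46845803, plus strand) holds CACGTG at 2 places and CACGT at a further place, and that of Slc16a1 (chr3:104638414-104638663, plus strand) holds 1 CACGTG. Those of Ldhb (chr6:142507958-142508207, minus strand) and Eno1 (chr4:150236458-150236707, plus strand) hold neither, although both hold GCGTG, as does that of Slc16a1. The letters were held by 9 of the 11 members at least 2-fold lower in striatum than in cortex, by 2 of the 4 at least 2-fold higher (Pfkfb2 and Pcx) and by 6 of the 15 between, and Eno1, which lacks them, was among the lower. The shares of all genes with the letters on each side were not computed, so these counts are a description of the members only. Of the 9, Pfkfb3 and Pgm2 rest on 1 cortical cell each. Ldha, Pdhb and Pgam1 fell under 2-fold when 1 cortical cell was left out. A match is a description of the letters and says nothing of binding.

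Together the 33 genes held a median of 2.35% of a striatal cell's TPM (lowest 1.33%, highest 3.35%), 2.83% in cortex (2.36% to 3.55%) and 2.02% in the SVZ (0.498% to 4.07%), ranges that overlap throughout. A few genes carried this share. Aldoc, Gapdh, Ldhb, Aldoa and Eno1 were the 5 members with a mean of at least 1000 TPM in each region, and held 80.7% of the members' sum in striatum, 74.4% in cortex and 78.3% in the SVZ. At the other end, 5 members in striatum, 6 in cortex and 5 in the SVZ had means under 10 TPM. At 1 TPM or more, 20 members were seen in at least 50% of striatal cells, 23 in cortex and 18 in the SVZ.

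**Figure D1:**
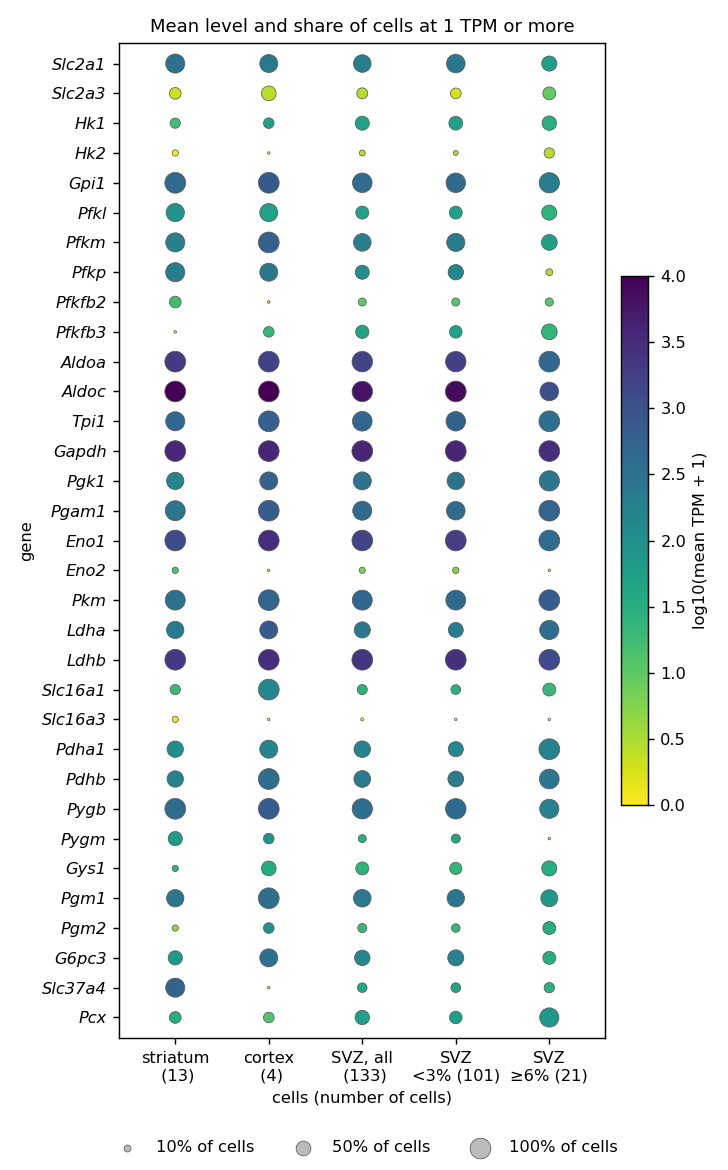
Mean TPM (colour, log10 scale) and share of cells at 1 TPM or more (circle area grows with the share) for the 33 genes, in striatum, cortex, all SVZ cells, and SVZ cells with less than 3% or at least 6% of TPM in ribosomal protein genes. Aldoc, Gapdh, Ldhb, Aldoa and Eno1 are the darkest rows in the 3 regions, and Aldoc and Eno1 are lighter in the last column.

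Of 12 steps from glucose transport to lactate dehydrogenase, a median of 11 had at least 1 gene at 1 TPM in the cells of each region. Aldolase, glyceraldehyde phosphate dehydrogenase and lactate dehydrogenase were seen in every one of the 150 cells. Hexokinase, which traps glucose as glucose 6-phosphate, was the step seen least: 4 of 13 striatal, 1 of 4 cortical and 64 SVZ cells (48.1%). The genes counted for it were Hk1 and Hk2. Adpgk, a glycolysis gene outside the members, was not counted and averaged 0, 57.6 and 35.9 TPM in striatum, cortex and SVZ. Only 1 striatal cell, 1 cortical cell and 27 SVZ cells (20.3%) showed all 12 steps, and 5, 3 and 50 did so with hexokinase left aside. These are shares of cells in which a transcript was read, and a gene at 0 in a cell is not shown to be absent from it.

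Between the member transporters Slc2a1 and Slc2a3, nearly all TPM came from Slc2a1, GLUT1 (GRCm38, chromosome 4, 119108711 to 119137983, plus strand). It averaged 329 ± 251 TPM in striatum, 238 ± 178 in cortex and 201 ± 255 in the SVZ. The lowest, median and highest striatal cells had 0, 302 and 912 TPM, the cortical cells 309, 226, 0 and 419, and the SVZ cells spread around a median of 128.01 up to 1451. The regions therefore overlapped, with Slc2a1 seen in 11 of 13 striatal, 3 of 4 cortical and 71.4% of SVZ cells. Slc2a3, the neuronal transporter GLUT3, averaged 1.00, 1.63 and 1.90 TPM, so that Slc2a1 made up 99.7, 99.3 and 99.1% of their sum. Transporter genes outside the members are not in that sum. Slc2a8 averaged 33.8, 149.5 and 79.7 TPM in striatum, cortex and SVZ, Slc2a10 6.38, 39.6 and 40.2, and Slc2a4 43.2, 0 and 18.9. Among hexokinases Hk1, the form bound to mitochondria, averaged 17.2 ± 36.2, 50.1 ± 100.2 and 46.1 ± 76.8 TPM and was seen in 3 of 13, 1 of 4 and 45.1% of cells. The cortical mean of Hk1 rests on 1 cell at 200.4 TPM, the other 3 being at 0. Hk2, the inducible form, averaged under 2 TPM in each region and was seen in 6.77% of SVZ cells. Gpi1, which turns glucose 6-phosphate into fructose 6-phosphate, was steadier: the means were 428 ± 281, 773 ± 353 and 383 ± 326 TPM, and the 4 cortical cells had 258, 831, 979 and 1024 against a striatal range of 55.95 to 995.

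Phosphofructokinase, the committing step, is a tetramer of muscle (Pfkm), platelet (Pfkp) and liver (Pfkl) type subunits. Pfkm averaged 184 ± 122.9 TPM in striatum, 592 ± 445 in cortex and 192 ± 212 in the SVZ. Its cortical cells had 291, 1251, 363 and 464 TPM, while striatal cells had a lowest, median and highest of 0, 190.3 and 448, and 11 of 13 lay below the lowest cortical cell. Pfkp averaged 219.6 ± 226, 246 ± 243 and 111.5 ± 242 TPM, with cortical cells at 74.8, 435, 472 and 0 and striatal cells at 0, 131.8 and 641. Pfkl averaged 82.2 ± 68.2, 48.1 ± 53.4 and 48.8 ± 84.1 TPM, with cortical cells at 0, 14.04, 59.9 and 118.3. As shares of the summed means, Pfkm, Pfkp and Pfkl were 37.8, 45.2 and 16.9% in striatum, 66.9, 27.7 and 5.43% in cortex and 54.5, 31.6 and 13.9% in the SVZ. All 3 subunits were seen in 7 of 13 striatal cells, 2 of 4 cortical cells and 17 SVZ cells, and a lone subunit in 1, 0 and 53. Pfkfb3 and Pfkfb2 make fructose 2,6-bisphosphate, the activator of this step. Pfkfb3 was listed at 0 in all 13 striatal cells (exact 95% upper limit of the share of cells 24.7%), was at 81.4 TPM in 1 cortical cell and averaged 46.7 ± 96.9 TPM in the SVZ, where 39.8% of cells had it. Pfkfb2 was seen in 4 of 13 striatal cells, in none of the 4 cortical cells and in 13.5% of SVZ cells.

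Aldoc, aldolase C, stood first among all members in each region (GRCm38, chromosome 11, 78322968 to 78327781, plus strand) and ranked 10, 8 and 11 among all genes by mean in striatum, cortex and SVZ. Its means were 9359 ± 2192, 10007 ± 2048 and 6382 ± 4109.8 TPM. The striatal cells ran from a lowest of 5087 over a median of 9238 to 14135 TPM and the cortical cells had 9902, 11626, 7153 and 11347, so that the regions overlapped. SVZ cells were far more spread, from 0.130 to 17784 TPM around a median of 6625. Aldoa, the form of most tissues, averaged 2161 ± 816, 1732 ± 948 and 1502 ± 997 TPM, with cortical cells at 398, 2631, 2027 and 1874. Aldoc thus held 81.2, 85.2 and 80.95% of the aldolase mean, and more than 50% of it in all striatal and cortical cells, 53 of 68 ogp and 63 of 65 ogp2 cells.

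In the later steps of the pathway Gapdh varied least from cell to cell among members in the SVZ, with a coefficient of variation of 0.482. It averaged 3631 ± 1596, 3758 ± 1078 and 3758 ± 1813 TPM, and its cortical cells had 4445, 3303, 2462 and 4822. Tpi1, which interconverts the triose phosphates, averaged 481 ± 333, 592 ± 351 and 502 ± 389 TPM, with cortical cells at 463, 535, 278 and 1094. Pgk1, the first ATP-forming enzyme, averaged 152 ± 152 TPM in striatum and 581 ± 413 in cortex, against 299 ± 294 in the SVZ. The striatal cells had a lowest, median and highest of 0, 159 and 394 TPM and the cortical cells 973, 638, 0 and 710.3, so 3 cortical cells lay above every striatal cell and 1 was at 0. Pgam1, phosphoglycerate mutase, averaged 276 ± 159, 652 ± 349 and 423 ± 338 TPM, with cortical cells at 387, 785, 351 and 1085 and 10 of 13 striatal cells below them. Eno1, the general enolase, averaged 1284 ± 577, 3010.0 ± 971 and 1575 ± 1125 TPM. The cortical cells of Eno1 had 1988, 4073, 2419 and 3560.3 TPM against 380.3, 1380.2 and 2046 in striatum, and 12 of 13 striatal cells were below the lowest cortical one. Neuronal enolase Eno2 was seen in 1 of 13 striatal, no cortical and 7.52% of SVZ cells, so Eno1 held 99.01, 100.0 and 99.6% of the enolase mean. Pkm, pyruvate kinase, whose splice forms the gene-level values do not separate, averaged 310.1 ± 302, 509 ± 308 and 484 ± 334 TPM, with cortical cells at 425, 509, 922 and 181.

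Ldhb, the subunit that favours lactate use, was the main lactate dehydrogenase. Means of Ldhb were 2198 ± 977, 3019 ± 1109.7 and 2469.7 ± 1490.2 TPM, with cortical cells at 1829, 2345, 4161 and 3740.1 and striatal cells at 584, 2299 and 4103. Ldha, which favours lactate formation, averaged 228 ± 307, 786 ± 1001 and 262 ± 379.7 TPM. Of the cortical Ldha values, 0, 346, 552 and 2249 TPM, the last alone exceeded every striatal cell (0, 196 and 1123), and Ldha was seen in 9 of 13, 3 of 4 and 60.2% of cells. Ldhb held 90.6, 79.3 and 90.4% of the summed means. Slc16a1, the monocarboxylate transporter MCT1, averaged 19.1 ± 38.9 TPM in striatum, 140.1 ± 86.8 in cortex and 24.8 ± 64.5 in the SVZ. It was seen in 3 of 13 striatal cells, none above 103.6 TPM, and in all 4 cortical cells, at 205, 198, 140.1 and 17.4 TPM. Slc16a3, the transporter MCT4 of strongly glycolytic cells, was seen in 1 of 13 striatal, 0 of 4 cortical and 0.752% of SVZ cells. Pdha1 and Pdhb, subunits of the first pyruvate dehydrogenase enzyme, averaged 113.04 and 159 TPM in striatum, 158 and 379.9 in cortex, and 159.9 and 221 in the SVZ. Pdha1 had SDs of 104.6, 130.4 and 182 TPM and cortical cells at 150.2, 163, 0 and 319, and Pdhb SDs of 156, 255 and 246 and cortical cells at 201, 584, 121.1 and 613. Pcx, pyruvate carboxylase, the astrocytic route from pyruvate to oxaloacetate, averaged 32.2 ± 51.8, 11.5 ± 22.9 and 59.1 ± 96.04 TPM, and the cortical mean is 1 cell at 45.8.

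Glycogen is stored mainly by astrocytes in the brain. Its breakdown was represented by Pygb, the brain glycogen phosphorylase, which averaged 404 ± 149, 715 ± 506 and 367 ± 276 TPM and was seen in 13 of 13, 4 of 4 and 95.5% of cells. The cortical cells of Pygb had 321, 441, 1446 and 651 TPM and the striatal cells 236, 397 and 796. Pygm, the muscle form that astrocytes also make, averaged 62.5 ± 77.8 and 30.4 ± 96.6 TPM in striatum and SVZ and was seen in 6 of 13 and 13.5% of cells. Only 1 cortical cell had Pygm, at 357 TPM. Gys1, glycogen synthase, averaged 23.7, 33.04 and 24.8 TPM and was seen in 1 of 13, 2 of 4 and 38.3% of cells. Pgm1 (ENSMUSG00000025791 in the reference names used here), a phosphoglucomutase between glycogen and glycolysis, averaged 281 ± 266, 353 ± 159 and 235 ± 282 TPM, with cortical cells at 203, 247, 412 and 549. Pgm2 (ENSMUSG00000029171), its relative, was at 3.59 and 20.01 TPM in striatum and SVZ, while its cortical mean of 102.9 is 1 cell at 412. G6pc3, a glucose 6-phosphatase of the endoplasmic reticulum, averaged 65.05 ± 119.3, 342 ± 303 and 141 ± 192 TPM, with cortical cells at 439.9, 219, 0 and 708 and a striatal median of 0.

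Slc37a4, which carries glucose 6-phosphate into the endoplasmic reticulum (GRCm38, chromosome 9, 44396852 to 44402968, plus strand), was read mainly in striatum. It averaged 566 ± 563 TPM in striatum, where 11 of 13 cells had it and the lowest, median and highest were 0, 450.1 and 2091. All 4 cortical cells were at 0 (exact 95% upper limit of the share 60.2%), and the SVZ averaged 38.3 ± 90.01 TPM with 20.3% of cells seen. Within striatum the OGStr cells averaged 650.0 TPM and the 2 OStr cells 106.9 TPM, 1 of the 2 being at 0. The lumenal enzyme that Slc37a4 feeds, G6pc3, had the opposite order, with its highest mean in cortex.

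Striatum was then set against cortex as log2 of (mean TPM + 1) in striatum over cortex, for genes with a mean of at least 10 TPM in either region. Of the 33 members 30 entered, and 23 were lower and 7 higher in striatum, with a median of -0.49. The same median over all 8276 genes that entered was 0.10, and over the 4373 genes with at least 10 TPM in both it was -0.39, where the 25 members that qualified had -0.51. At least 2-fold lower in striatum were 11 members (36.7% of the 30, against 28.9% of all genes), and 4 were at least 2-fold higher (13.3% against 38.3%). The members' lower median was thus shared in large part by all genes read well in both regions. Scaling by median ratios, which moved the median of all genes to 0.50, moved the members' median to -0.10. With this scaling 8 members were at least 2-fold lower (22.8% of all genes were) and 5 at least 2-fold higher (42.3% of all genes). With logs averaged over cells the members' median was -1.08 and that of all genes 0.06.

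The members lower in striatum included Pgk1 (-1.93), Ldha (-1.78), Pfkm (-1.68), Pdhb (-1.25), Pgam1 (-1.24) and Eno1 (-1.23), all with means above 100 TPM in both regions. Slc16a1 (-2.81) and G6pc3 (-2.38) were lower as well. Hk1 (-1.49) and Pgm2 (-4.50) rest on 1 cortical cell each, as does Pfkfb3, which was listed at 0 in striatum. Single cells weighed on others too: without the highest cortical cell of each gene, Ldha stood at -0.39, Pdhb at -0.92 and Pgam1 at -0.88, all under 2-fold, and without the cell at 1251 TPM Pfkm stood at -1.02. Pdhb was at -0.97 without its second highest cell. Eno1 (-1.38 to -1.05), Pgk1 (-2.34 to -1.56), Slc16a1 (-3.18 to -2.57) and G6pc3 (-2.79 to -1.74) stayed at least 2-fold lower whichever cortical cell was left out. Of the 4 higher ones, Slc37a4, Pfkfb2 and Eno2 were listed at 0 in all 4 cortical cells, which gives no ratio, and Pcx stood at 1.42. No member had every striatal cell above every cortical cell (0.0121% of all genes did) or every one below (0.0725%). The 5 most abundant members were divided: Eno1 was lower, Ldhb stood at -0.46, and Aldoc (-0.10), Gapdh (-0.05) and Aldoa (0.32) differed by less than their spread between cells.

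**Figure D2:**
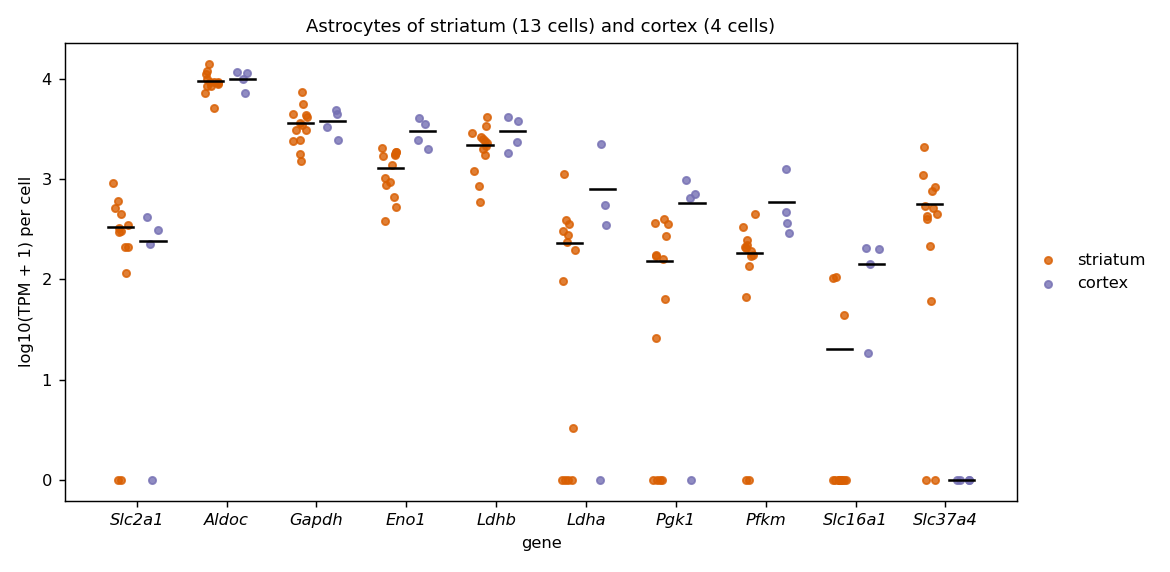
Level of 10 members in each striatal (orange) and cortical (purple) cell on a log10(TPM + 1) axis; black lines are the log of the mean. Cortical cells lie high for Eno1, Pfkm and Slc16a1, both regions share the range for Aldoc and Gapdh, and Slc37a4 is at 0 in the 4 cortical cells.

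Against the SVZ, striatal cells were close and cortical cells higher. Over the 30 members that entered, the median of striatum over SVZ was -0.06 (all 9080 genes: -0.26), with 3 at least 2-fold higher (12.3% of all genes were) and 4 at least 2-fold lower (28.3% of all genes). The higher ones were Slc37a4 (3.85), Eno2 (1.05) and Pygm (1.01), and the lower ones Pgm2, Hk1, G6pc3 and Pfkfb3. Cortex over SVZ had a median of 0.60 over 28 members (all 8940 genes: -0.49), with 8 at least 2-fold higher (20.7% of all genes) and 3 lower (43.4% of all genes). With 10 TPM in both groups the median of all genes was 0.33 and that of 27 members 0.62. At that minimum 8 members (29.6%, against 25.5% of all genes) were at least 2-fold higher and 2 (7.41%, against 11.7%) lower. The 8 were Slc16a1 (2.45), Pgm2 (2.31), Pfkm (1.62), Ldha (1.58), Pygm (1.52), G6pc3 (1.27), Pfkp (1.13) and Gpi1 (1.01). Of these, Slc16a1 alone stayed at least 2-fold higher whichever cortical cell was left out (2.21 to 2.82). The lowest values with 1 cell left out were 0.19 for Ldha, 0.95 for Pfkm, 0.64 for G6pc3, 0.60 for Pfkp and 0.84 for Gpi1, and Pgm2 and Pygm rest on 1 cortical cell each. The 3 lower were Slc37a4, listed at 0 in cortex, and Pcx and Pfkfb3, each seen in 1 cortical cell. These comparisons share their cells, so they are not independent of each other.

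Within the SVZ, cells differ in the share of TPM held by 81 genes of ribosomal proteins, the building blocks of the translation machinery, which neural stem cells raise as they leave rest. The cells under 3% (46 ogp and 55 ogp2), here called ribosome-poor, had a median share of 1.61%, the 21 ribosome-rich cells at 6% or more had 9.73%, and 11 lay between. The members held a median of 2.33% of TPM in ribosome-poor, 1.63% in intermediate and 0.918% in ribosome-rich cells. Without the 5 most abundant members these medians were 0.447, 0.409 and 0.363%. Of 29 members that entered, 13 were at least 2-fold lower in ribosome-rich cells (44.8%, against 23.0% of all 9283 genes) and 0 at least 2-fold higher (26.8% of all genes). The members' median log2 ratio was -0.73, where that of all genes was 0.16. With logs averaged over cells in place of TPM these medians were -0.0105 and 1.32, and 9 members were then at least 2-fold higher (58.1% of all genes).

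Other properties moved with the ribosomal share, and their part in these differences was not tested. Ribosome-rich cells had a median of 6285 genes at 1 TPM against 3217. The 8 astrocyte markers summed to medians of 1239 against 11404 TPM (ranges 331 to 7991 and 1131 to 22437), the 5 cycling markers to 66.6 against 0.25 (0 to 7229 and 0 to 223), and the 5 neuroblast markers to 198 against 0 (0 to 1004 and 0 to 125.5). The 4 ependymal markers summed to medians of 0 against 174 TPM (0 to 310 and 0 to 2255). For the 6 oligodendrocyte markers the medians were 70.7 against 146 (0 to 481 and 0 to 1675). Of the 21 ribosome-rich cells 15 were ogp and 6 ogp2.

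Aldoc led the difference among abundant members. Its lowest, median and highest cells had 662, 7730.0 and 17784 TPM among ribosome-poor and 0.130, 130.8 and 6259.7 among ribosome-rich cells, with an intermediate mean of 5133 between means of 7618 and 1095. The log2 ratio was -2.80, and 4 ribosome-rich cells had less than 1 TPM. Eno1 (-2.23) had medians of 1732 and 299.5 TPM, Aldoa (-1.79) of 1600.2 and 385, and Ldhb (-1.17) of 2576 and 1168. The ranges overlapped for each of these genes. Slc2a1 (-2.02) was seen in 80.2% of ribosome-poor, 3 of 11 intermediate and 11 of 21 ribosome-rich cells, with medians of 207, 0.270 and 21.4 TPM. Pfkp (-5.54) was seen in 54.5% of ribosome-poor and 2 of 21 ribosome-rich cells. Pygm was seen in 17.8% of ribosome-poor cells and was listed at 0 in all 21 ribosome-rich ones. The other members at least 2-fold lower were G6pc3 (-2.41), Pfkm (-2.15), Pgm1 (-1.92), Pygb (-1.25), Pfkl (-1.10) and Pfkfb3 (-1.10), the last 3 of which were under 2-fold in ogp2 cells.

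Several other genes of the later steps, unlike Eno1 and Ldhb, were not at least 2-fold lower in ribosome-rich cells. Pkm had a lowest, median and highest of 0, 386 and 1784 TPM in ribosome-poor and 204, 719 and 1287 in ribosome-rich cells (0.64). Ldha (0.66) was seen in 51.5% of ribosome-poor and 18 of 21 ribosome-rich cells, with medians of 1.87 and 287 TPM. Pgam1 (0.40) was seen in 80.2% of and 21 of 21 cells. Gapdh (-0.40) and Pgk1 (-0.18) had means of 3953 and 296 TPM in ribosome-poor and 2989 and 262 in ribosome-rich cells. The mitochondrial branch had ratios near 0, with Pdha1 at 0.19, Pdhb at 0.29 and Pcx at 0.41, although Pcx was seen in 35.6% of ribosome-poor and 18 of 21 ribosome-rich cells. Each of these differences is smaller than the SD between cells in both sets, except that of Gapdh, which exceeds the SD of ribosome-rich cells (851 TPM) but not that of ribosome-poor cells (1639 TPM).

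**Figure D3:**
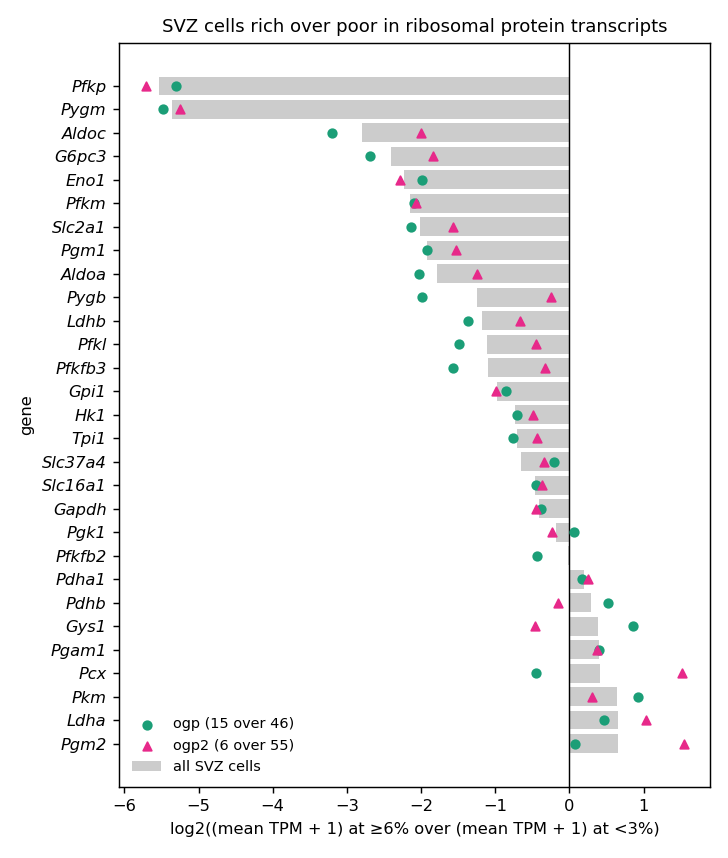
Log2 of (mean TPM + 1) in ribosome-rich over ribosome-poor SVZ cells for the 29 members that entered: bars for all cells, circles for ogp and triangles for ogp2. Aldoc, Eno1, Pfkm, Slc2a1 and Pfkp lie left of 0 in both series, Pkm, Ldha and Pgam1 right of it; Pygm is listed at 0 in ribosome-rich cells, so its length depends on the added 1 TPM.

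The series gave the same direction for the most different genes. Aldoc averaged 5533 TPM in ribosome-poor and 599.7 in ribosome-rich ogp cells (log2 ratio -3.20), and 9362 and 2334 in ogp2 cells (-2.003). For Eno1 the ratios were -1.99 and -2.29, for Slc2a1 -2.13 and -1.56, for Pfkm -2.10 and -2.07, and for Pkm 0.92 and 0.30. The members' medians were -0.73 in ogp (all genes 0.11) and -0.45 in ogp2 (all genes 0.15). Some were under 2-fold in ogp2: Ldhb stood at -1.37 in ogp and -0.66 in ogp2, Pygb at -1.99 and -0.24, Pfkl at -1.49 and -0.45, and Pfkfb3 at -1.57 and -0.32. The sign differed between ogp and ogp2 for Pcx (-0.45 and 1.52), Gys1 (0.86 and -0.46), Pdhb (0.53 and -0.16) and Pgk1 (0.06 and -0.23). Without the 5 SVZ cells whose deposited columns sum to between 66189 and 309864 TPM instead of 1000000, the members' median was -0.78 and 12 were at least 2-fold lower. The median and shares of all genes without these cells were not computed.

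The paralogue shares moved with these levels. Over cells, the median share of Aldoc in aldolase was 82.2% in ribosome-poor cells, where all but 1 had more than 50%, and 37.4% in ribosome-rich cells, where 8 of 21 did. The series differed in this. In ogp the medians were 80.4% and 9.90%, with 3 of 15 ribosome-rich cells above 50%. In ogp2 they were 83.5% and 79.3%, with 5 of 6 above 50%. The median share of Ldhb was 99.9% and 78.1%. In phosphofructokinase, Pfkm, Pfkp and Pfkl held 53.7, 33.5 and 12.9% of the summed means in ribosome-poor cells and 65.2, 2.69 and 32.1% in ribosome-rich cells, where the sum itself was lower (77.5 against 425 TPM). Slc2a1 still held 88.2% of the transporter pair in ribosome-rich cells.

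**Figure D4:**
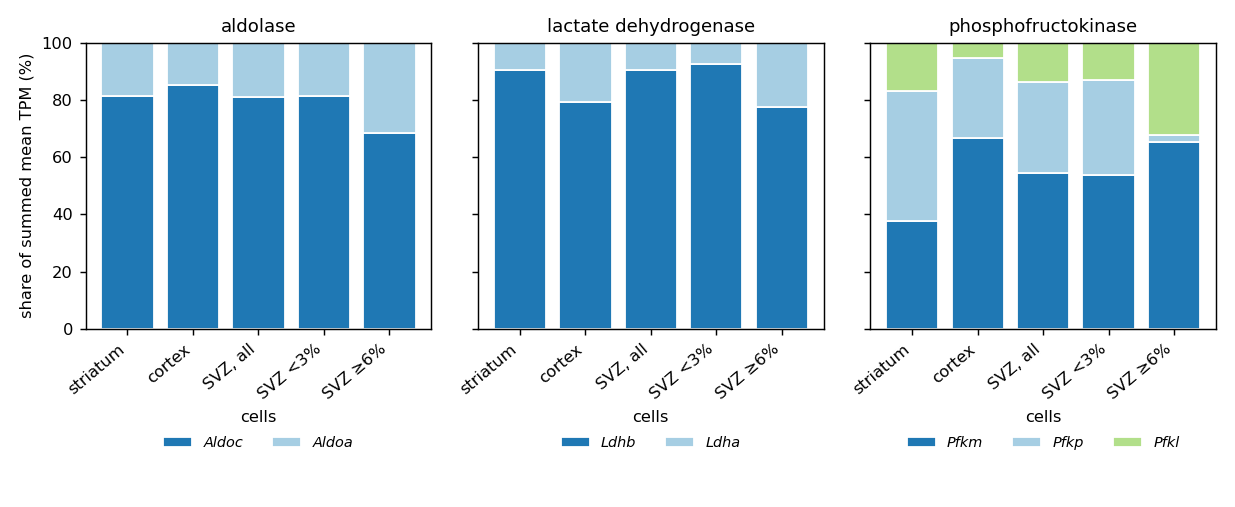
Share of each paralogue in the summed mean TPM of its enzyme (%), for aldolase, lactate dehydrogenase and phosphofructokinase, in 5 sets of cells. Aldoc and Ldhb hold most of their pairs in each set, with lower shares in SVZ cells at 6% or more of ribosomal protein TPM, where Pfkp is nearly absent.

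Cell by cell, Spearman's rho between a member and the ribosomal share was computed for the 27 members at 1 TPM in at least 20% of all SVZ cells (68 ogp and 65 ogp2). The depth of the cells is unknown, and the ribosomal share itself went with the number of genes read (rho 0.64), so these values are descriptions. Aldoc, Eno1 and Slc2a1 each had -0.50, Pfkp -0.36, Aldoa and Ldhb -0.35, and Pkm 0.35. The members' median was -0.12 and that of all 6885 such genes 0.15. A rho of -0.3 or less was found for 6 of the 27 members and 3.75% of all genes. Within ogp and ogp2, Aldoc had -0.54 and -0.32, Eno1 -0.48 and -0.42, and Slc2a1 -0.56 and -0.40. Pfkp had -0.40 and -0.25, Aldoa -0.51 and -0.06, Ldhb -0.46 and -0.14, and Pkm 0.41 and 0.38. Members at -0.3 or less were 7 in ogp (6.27% of all genes) and 3 in ogp2 (2.45%). With the number of genes read in place of the ribosomal share, the values over all SVZ cells were -0.49 for Aldoc, -0.48 for Eno1 and -0.25 for Slc2a1. Within the ribosome-poor cells (46 ogp and 55 ogp2) the members' median was 0.00 and that of all genes 0.04. There 1 member, Slc2a1, stayed at -0.3 or less (-0.33), as did 0.595% of all genes. Aldoc and Eno1 were both at -0.13 and Pkm at 0.24.

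**Figure D5:**
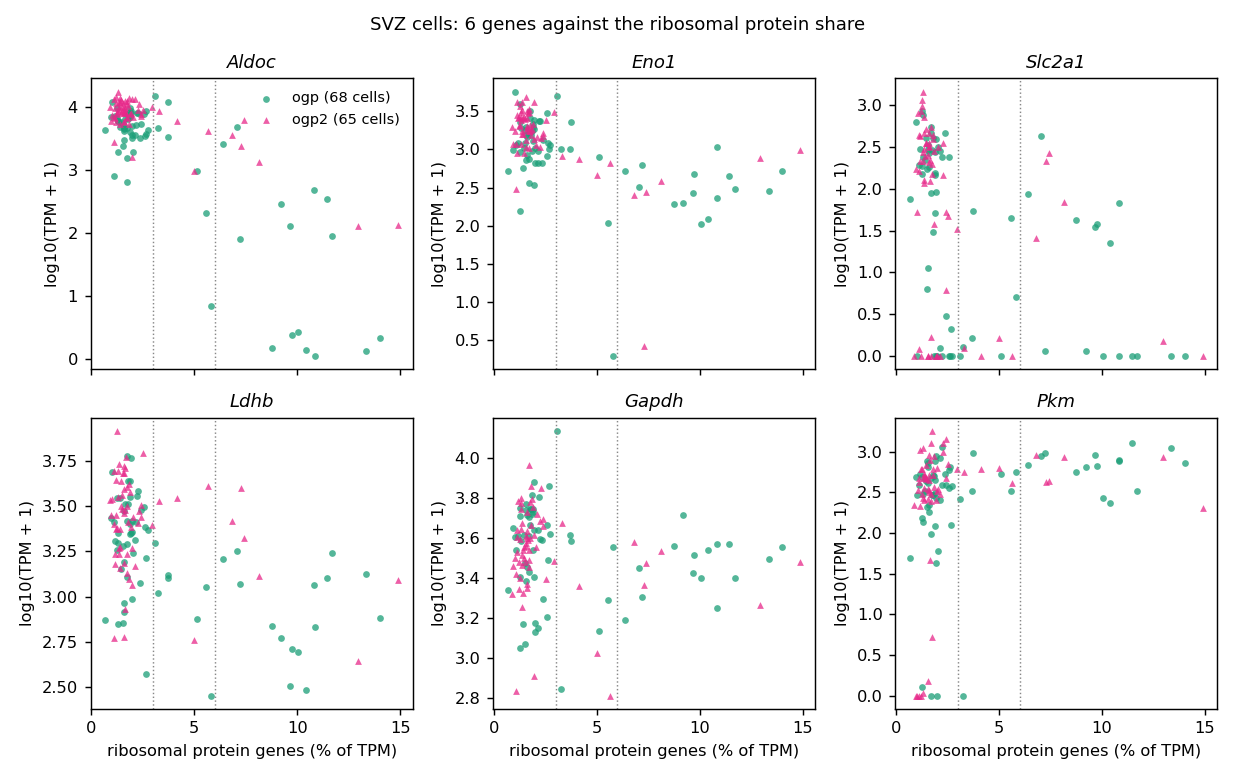
Level of 6 members, log10(TPM + 1), against the share of TPM in ribosomal protein genes (%) in all SVZ cells, ogp as circles and ogp2 as triangles; dotted lines mark 3% and 6%. Aldoc, Eno1 and Ldhb are lower to the right, Slc2a1 has many cells at 0 there, and Gapdh and Pkm overlap throughout.

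Some members went up and down together among ribosome-poor SVZ cells. Over the 351 pairs of the 27 members the median rho was 0.05, 15 pairs (4.27%) had 0.3 or more and none -0.3 or less. Of all pairs of the 6885 genes, which were not matched to the members in level, 0.333% had 0.3 or more. Since the series differ in level, the pairs were also taken within each: 11.4% of member pairs had 0.3 or more in ogp (2.95% of all pairs) and 3.99% in ogp2 (2.09% of all pairs). The highest were Aldoc with Eno1 (0.61), Aldoa with Aldoc (0.52) and Eno1 with Ldhb (0.45), followed by Ldhb with Pgm1 (0.39). Within ogp and ogp2, Aldoc with Eno1 had 0.65 and 0.37, Aldoa with Aldoc 0.62 and 0.43, Eno1 with Ldhb 0.55 and 0.22, and Ldhb with Pgm1 0.26 and 0.46. Slc2a1 went most closely with Pfkp (0.35 pooled, 0.35 and 0.33 by series). These are cells of 1 sample whose depth is unknown, and the part of depth in these values was not tested.

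Of 81 other genes of the same pathways, 44 entered the comparison of striatum and cortex, and 18 (40.9%) were at least 2-fold higher and 12 (27.3%) lower in striatum, shares near those of all genes. Basigin (Bsg), the chaperone of the lactate transporters, averaged 965, 829 and 985 TPM in striatum, cortex and SVZ, well above the transporter Slc16a1 itself. Mpc1, a subunit of the mitochondrial pyruvate carrier, averaged 599, 1151 and 543 TPM, and Pdk2, a kinase that shuts off pyruvate dehydrogenase, 430.0, 216 and 233. Between ribosome-rich and ribosome-poor SVZ cells 48 entered, with 23 (47.9%, against 23.0% of all genes) at least 2-fold lower and 4 (8.33%, against 26.8%) higher. Among glycogen genes 11 of 14 (78.6%) were at least 2-fold lower. They included Phkg1, a catalytic subunit of phosphorylase kinase (1.14 against 127.1 TPM), Ppp1r3c, a glycogen scaffold (45.9 against 182), and Ugp2, which makes UDP-glucose (124.05 against 359). Of 6 pentose phosphate genes that entered, 1 was at least 2-fold lower and 1 higher, the latter Pgls (204 against 64.04 TPM).

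The values were made with RSEM, per the submitters' processing notes, which divides reads between similar genes by an estimate, and its settings are not given in the sources used here. Gapdh has 85 near-identical copies in the table, which summed to means of 70.97, 150.2 and 246 TPM in striatum, cortex and SVZ beside Gapdh itself. The copy Pgam1-ps2 averaged 6.96, 95.3 and 13.6 TPM, and how reads were divided between Pgam1 and this copy was not tested. In the annotation 20 members overlap another annotated gene, among them Pfkm with Senp1, Aldoa with Fam57b, Gys1 with Ruvbl2, Hk1 with Hk1os and Pfkp with Pitrm1 on the opposite strand, and Smart-seq2 does not mark strand.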

How the data were processed

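Smart-seq2 libraries of 150 single cells were analysed, and 18 bulk libraries were not analysed here. The deposited values are TPM per gene and cell, made by the authors with STAR 2.4.0g1 and RSEM 1.2.18 on mm10, per the submitters' processing notes; the annotation and the counting strand are not given in the sources used here. Every cell was rescaled to sum to 1000000, which altered mainly 5 SVZ columns with sums of 66189 to 309864. No counts are given, so depth is unknown. Each region counts as 1 sample, since no animal is named for a cell, and no p-value was computed. Groups were compared as log2 of (mean TPM + 1), for genes whose mean reached 10 TPM in 1 of the groups or both, and 2-fold was the limit for a call; a cell counted as having a gene at 1 TPM. Intervals on shares of cells are exact Clopper-Pearson 95% and cover counting error only. Members with a mean of at least 50 TPM in any region were described in full, the others by mean, share and range, and other pathway genes were named from 20 TPM. The members, marker lists and other gene lists were chosen with earlier results of these data known. Python 3.11.15, numpy 2.4.6, pandas 2.3.3, scipy 1.17.1, matplotlib 3.10.9 and blastn 2.17.0 were used, and the calculations were tested on simulated data. Promoter windows came from RefSeq (GRCm38.p6), and positions and overlaps from GENCODE M21. Alternatives were another added value, expression minimum, scaling, averaging of logs, limits of the ribosomal share, single series and leaving out cortical cells.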

Additional observations from a re-analysis of the deposited data

Results flagged for a closer look

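In the cortex, with 4 cells, 27 members were looked at for 1 cell far from the other 3, and 6 showed one. The rule gives about 1 of 20 in groups of evenly spread values, which does not apply here, since a gene read in 1 of 4 cells meets it by construction: 51.6% of the 5556 genes with a cortical mean of at least 10 TPM did. The far cells were not the same for each gene. The first cortical cell had 200.4 TPM of Hk1, 81.4 TPM of Pfkfb3 and 45.8 TPM of Pcx, another had 357 TPM of Pygm and 412 TPM of Pgm2, and a further one had 130.9 TPM of Gys1. The cortical means of these genes rest on those cells.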

How the results depend on the processing

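Depth is unknown and the cortex has 4 cells, which limits every comparison with it. Averaging logs in place of TPM moved the striatum over cortex median to -1.08, the cortex over SVZ median to 1.21 and the ribosome-rich over ribosome-poor median to -0.0105, with 9 members then at least 2-fold higher; the median of all genes was then 1.32. The cause was not tested. In the latter comparison 1 member was at least 2-fold higher with no expression minimum, 1 in ogp alone and 3 in ogp2 alone, against 0. The shares of all genes at these settings were not computed, so these counts describe the members only. With 10 TPM in both regions, 1 member was at least 2-fold higher in striatum than in cortex (11.1% of all genes were), since fewer genes enter. The median rho was 0.000734 in ribosome-poor cells. For Hk1, striatum over cortex was -1.89 with any 1 of the cortical cells at 0 left out; without the cell that has it the other 3 are at 0, so the value of 4.19 is set by the added 1 TPM and gives no ratio or direction. Pfkfb3 in ribosome-rich cells reversed to 0.19 with averaged logs. Single members without each cortical cell and pairs by series were added after seeing the data. Leaving out each cortical cell in turn gave striatum over cortex medians of -0.64 to -0.40 and cortex over SVZ medians of 0.40 to 0.71. No paired analysis was possible because no animal is named for a cell.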
